A study of Mus musculus with 36 samples.

Results

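The comparison described here sets the stroma of shCD36 tumours from mice on a palmitate-rich diet against that from mice on the control diet, in the second VDH15 experiment. Its members are 6 of the series' 36 mouse arrays, taken by their titles: 3 of shCD36 tumours from mice on the palmitate diet and 3 of shCD36 tumours from mice on the control diet. VDH15 is a human oral carcinoma line, grown in the mouth of NOD-SCIDγ (NSG) mice, a strain without mature lymphocytes. The shRNA against CD36, a receptor that takes up long-chain fatty acids, was carried by the human tumour cells. The RNA, isolated with magnetic beads and amplified, came from mouse stromal cells that the labels call the neural fraction; how that fraction was sorted is not given in the sources used here. The labels mark the 3 arrays of each diet as technical replicates of 1 biological replicate. Every error and adjusted p given here therefore measures the spread among arrays and compares these sets of arrays, not the diets over independent animals. The labels do not say if those 3 share an RNA extract, a tumour or a pool of mice. PLKO tumours of the same line, labelled only by the name of an shRNA vector, were measured on both diets in the same experiment, and shCD36 tumours of another oral carcinoma line, SCC25, on both diets in another.

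Stroma holds the cells that feed and frame a tumour. Endothelial cells line its vessels, pericytes and smooth muscle cells wrap and contract them, and fibroblasts lay down collagen. In the mouth, nerves with their Schwann cells run through the same tissue beside a stratified epithelium. Stressed epithelium releases alarmins, proteins such as interleukin-33 and the paired S100a8 and S100a9 that alert innate immune cells, and it forms more cornified envelope, to which the small proline-rich proteins of the Sprr2 family are added.

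Levels are deposited log2 intensities, 1 probe set a gene, and a difference is the palmitate mean minus the control mean on that scale. It is given with the moderated standard error of limma over 3 arrays against 3, in which each gene's spread is drawn toward that of all genes. Of 17097 genes, 12823 had a mean over the 6 arrays above 5.20, the limit of the lowest 25%, and were tested with limma, with Benjamini-Hochberg adjustment over all 12823 and a call at an adjusted p under 0.05. In all, 277 genes were called, which is 2.16% of those tested. Of these, 69 were higher on palmitate (0.538%) and 208 were lower (1.62%), and in all 277 the palmitate arrays did not overlap the control arrays. Over all tested genes, 20.4% had arrays that did not overlap, 8.12% with palmitate higher and 12.3% with palmitate lower. An unadjusted p under 0.05 was reached by 14.9% of genes. The median difference was -0.02 over all genes, 0.64 over the genes called higher and -0.64 over those called lower. A difference of at least 1 on the log2 scale was seen in 52 genes (0.406%), and without overlap in 16 genes higher on palmitate (0.125%) and 31 lower (0.242%). Arrays of 1 diet correlated at 0.989 to 0.994 and arrays of different diets at 0.982 to 0.989.

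**Figure D1:**
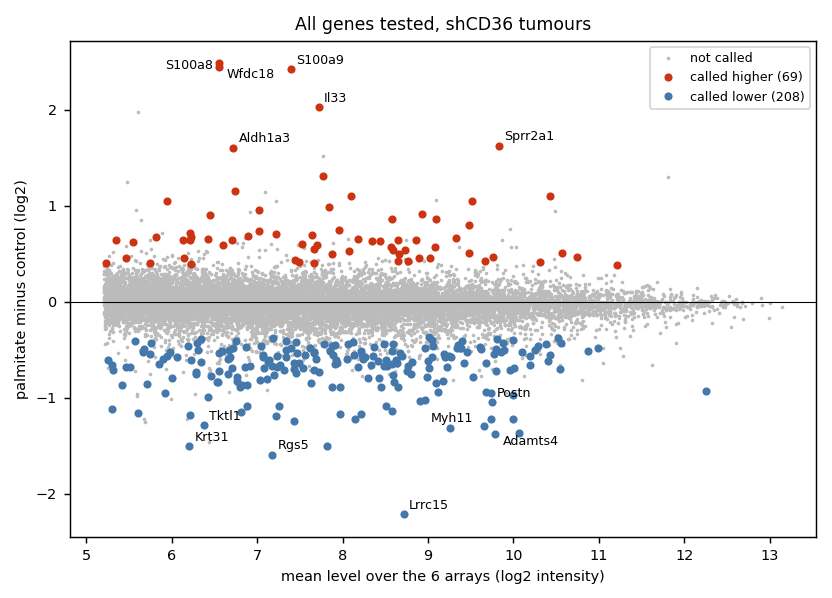
Each point is 1 of the 12823 tested genes, placed by the mean level of its 6 arrays (horizontal, log2) and by the palmitate minus control difference in shCD36 tumours (vertical, log2). The 69 genes called higher and the 208 called lower are drawn in red and blue, and some named genes are labelled; most points lie near the median difference of -0.02.

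S100a8, Wfdc18 and S100a9, all secreted proteins, had the highest differences. S100a8, a subunit of calprotectin, measured 5.04, 6.17 and 4.72 on the control diet and 7.51, 8.06 and 7.82 on palmitate, a rise of 2.49 ± 0.33 (5.6-fold, adjusted p = 0.0119). S100a9, its partner, measured 6.10, 6.63 and 5.81 against 8.28, 9.17 and 8.38, a rise of 2.43 ± 0.26 (5.38-fold, adjusted p = 0.00702). In both genes the lowest palmitate array stood more than 1 log2 unit above the highest control array. Wfdc18, a small secreted protein of the WAP-domain family, measured 5.34, 5.28 and 5.38 against 7.45, 7.84 and 8.04 and rose by 2.45 ± 0.14 (5.45-fold, adjusted p = 0.00052). Its control arrays lay close to the filter at 5.20, so its starting level was near the lower end of what was tested.

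S100a8 and S100a9 are also the most abundant cytosolic proteins of neutrophils, and the other neutrophil markers were examined beside them. Of 12 neutrophil genes on the array 8 were tested, and S100a8 and S100a9 were the only ones called, against 0.538% of all genes called higher. Of the 8, 7 were positive, with a median of 0.23, and 3 had higher palmitate arrays without overlap, against 8.12% of all genes. Csf3r, the receptor for the cytokine that drives neutrophil formation, differed by 0.01 ± 0.09, and the granule genes Camp, Mpo and Ltf by 0.04, 0.00 and -0.07. Ly6g and Cxcr2, which define the cell type, were not among the tested genes. The gelatinase Mmp9 (0.87 ± 0.33, adjusted p = 0.256) and the lipocalin Lcn2 (0.42 ± 0.12, adjusted p = 0.123) did not pass. The median level of the 12 genes lay between 5.53 and 6.0 on the control arrays and between 5.79 and 6.06 on palmitate. Of 14 tested macrophage and myeloid genes none was called, in a list whose median difference was 0.23. Lyz2, the macrophage lysozyme, measured 7.66, 7.15 and 6.22 against 8.34, 9.35 and 7.91, and its difference of 1.52 ± 0.42 did not pass (adjusted p = 0.121). The protease Ctss measured 6.76, 6.77 and 6.05 against 7.38, 8.81 and 6.80 (1.14 ± 0.45, adjusted p = 0.277), and Aif1 differed by 0.31 ± 0.09, also without a call. Csf1r and Cd68 differed by 0.25 and 0.01. Of the 14 genes 12 were positive, and 3 (Lyz2, Ctss and Aif1) had higher palmitate arrays without overlap, against 8.12% of all genes. The part of myeloid cells in the S100a8 and S100a9 values was not tested. Without control array 1, S100a8 was no longer called (adjusted p = 0.0592), while S100a9 and Wfdc18 were called in all 6 fits that left out 1 array.

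Il33, the nuclear alarmin of the interleukin-1 family, measured 5.97, 7.03 and 7.12 on the control diet and 8.70, 8.92 and 8.58 on palmitate. The rise of 2.03 ± 0.27 (4.08-fold, adjusted p = 0.0125) passed in all 6 fits that left out 1 array. The related cytokines Il20 and Il24 signal through shared receptors to epithelial cells. Il20 measured 5.88, 6.29 and 6.34 against 7.03, 7.43 and 7.51 and rose by 1.15 ± 0.16 (adjusted p = 0.0128), a call lost without control array 1 (1.00, adjusted p = 0.0529). Il24 measured 7.43, 7.24 and 7.34 against 8.22, 8.37 and 8.40 and rose by 0.99 ± 0.09 (adjusted p = 0.00365). All 3 genes had palmitate arrays above every control array.

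The wider cytokine and chemokine list did not share this size of change. Of its 29 genes, 3 were called, all higher, against 0.538% of all genes called higher. The median difference was 0.14, or 0.08 without palmitate array 3. Of the 29, 21 were positive. Palmitate arrays were higher without overlap in 8, against 8.12% of all genes, and lower without overlap in 3, against 12.3%. The called genes were Il33, Il24 and Ccl2, the chemokine that attracts monocytes, which measured 10.61, 10.43 and 10.50 against 10.97, 10.85 and 11.12 (0.47 ± 0.09, adjusted p = 0.0455). Ccl2 was called in none of the 6 fits that left out 1 array, where its adjusted p ran from 0.0531 to 0.157, and 2 genes of the list were called in each of those fits. The acute cytokines Tnf, Il1b and Il1a did not pass: Tnf differed by 0.12 ± 0.12, Il1b by 0.28 ± 0.11 and Il1a by -0.10 ± 0.08. Il6 had lower palmitate arrays (8.09, 8.79 and 8.30 against 7.74, 7.99 and 7.91) but did not pass (-0.51 ± 0.17, adjusted p = 0.191).

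Sprr2a1 and Sprr2d, genes of the squamous epithelium, also rose. Sprr2a1 measured 8.96, 9.20 and 8.89 on the control diet and 10.60, 10.60 and 10.73 on palmitate, a rise of 1.63 ± 0.10 (3.09-fold, adjusted p = 0.00052). Sprr2d measured 6.88, 7.32 and 7.14 against 8.41, 8.59 and 8.27, a rise of 1.31 ± 0.13 (2.48-fold, adjusted p = 0.00602). Both passed in all 6 fits that left out 1 array. Further called genes that epithelium expresses, named after their values were seen, were Sprr2h (0.64 ± 0.08), the protease inhibitor Csta1 (0.90 ± 0.12) and the antimicrobial Defb1 (0.86 ± 0.10). Tmprss11d, an airway and oral epithelial serine protease, rose by 0.65 ± 0.12 (adjusted p = 0.0383) and was called in none of those 6 fits.

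Markers of the epithelium in general were not called. Of 18 tested keratinocyte genes, which include Krt5, Krt14, Epcam and Cdh1, none was called. Their differences ran from -0.04 to 0.17 with a median of 0.06, and the median level of the list lay between 10.65 and 10.69 on the control arrays and between 10.66 and 10.71 on palmitate. Of 18 tested cornified envelope and barrier genes only Sprr2d was called, against 0.538% of all genes called higher, and their median difference was -0.00. The keratinocyte genes were well above the filter in a preparation labelled as neural, which is a property of all 6 arrays.

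Because several Sprr2 genes moved together, their promoters were read for a match to TGANTCA, the palindromic recognition sequence of the AP-1 factors, in the 250 bases before the transcription start (RefSeq, GRCm38.p6). The motif and the genes shown were chosen after the values were seen. Of 52 genes called higher that had a promoter in the table, 11 (21.2%) held the motif, as did 16 of 158 called lower (10.1%) and 627 of all 10268 tested genes with a promoter (6.11%). Sprr2d and Sprr2h are shown because their matches lie at nearly the same distance from the start, 193 and 198 bases, and Lrrc15, the gene that fell furthest, because its match lies 53 bases before the start. Capitals mark the motif, with up to 50 bases of flank on either side, cut at the transcription start for Lrrc15, 5′ to 3′ on the strand of the gene.
Sprr2d, chr3:92338897-92339003, plus strand: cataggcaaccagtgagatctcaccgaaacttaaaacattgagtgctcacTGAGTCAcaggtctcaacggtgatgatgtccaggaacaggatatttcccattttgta
Sprr2h, chr3:92385437-92385543, plus strand: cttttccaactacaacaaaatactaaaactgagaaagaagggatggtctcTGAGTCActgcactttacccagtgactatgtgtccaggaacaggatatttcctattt
Lrrc15, chr16:30283255-30283357, minus strand: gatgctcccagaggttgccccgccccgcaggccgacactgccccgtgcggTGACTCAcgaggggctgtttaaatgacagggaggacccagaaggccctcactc
Sprr2a1, which rose more than either, has no match in its window. A match describes these letters and is not evidence of binding. Of the AP-1 subunits, Fos differed by -0.04 ± 0.07, Fosl1 by -0.14 ± 0.09 and Jun by -0.15 ± 0.07, and none of them passed.

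The remaining genes with the highest differences act in nutrient transport, retinoid synthesis and immune recognition. Aldh1a3, which makes retinoic acid, measured 5.57, 6.50 and 5.68 against 7.66, 7.98 and 6.93 (1.61 ± 0.30, adjusted p = 0.0356). It passed in 2 of the 6 fits that left out 1 array and was lost without control array 1 or 3 or palmitate array 1 or 2, with an adjusted p of up to 0.135. The cationic amino acid transporter Slc7a2 measured 9.90, 9.82 and 9.92 against 10.90, 10.81 and 11.25 (1.11 ± 0.12, adjusted p = 0.00702). The broad amino acid transporter Slc6a14 rose by 0.96 ± 0.15 (adjusted p = 0.0207) and passed in 2 of those 6 fits. Among the others, the metalloprotease Adam28 rose by 1.10 ± 0.10, Lgi2 by 1.05 ± 0.13 and the Schlafen gene Slfn2 by 0.91 ± 0.10. H2-Ab1, a chain of MHC class II, measured 8.80, 9.37 and 8.81 against 9.94, 10.08 and 10.10 and rose by 1.05 ± 0.15 (adjusted p = 0.0136). It missed the threshold without control array 1 (adjusted p = 0.0655) or 3 (adjusted p = 0.0602). It was the only 1 of 14 antigen presentation genes called, against 0.538% of all genes called higher. Of the 14, 12 were positive, with a median of 0.08. Palmitate arrays were higher without overlap in 5, against 8.12% of all genes, and lower in 1, against 12.3%.

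**Figure D2:**
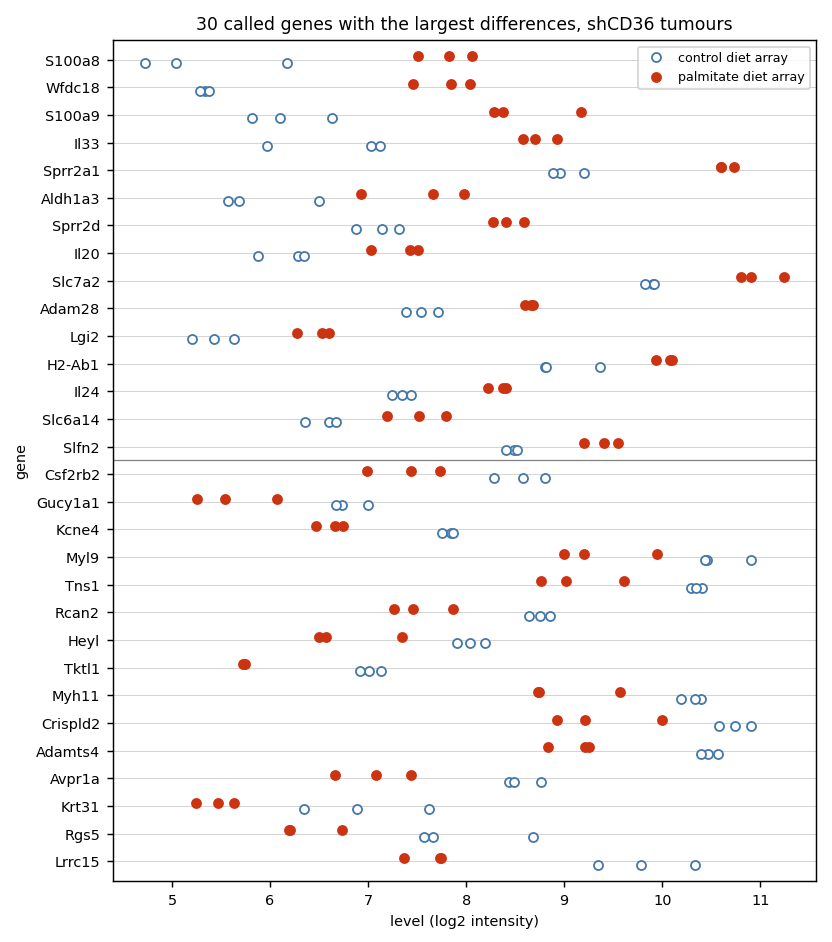
Log2 level of each of the 30 named genes on the 3 control and 3 palmitate arrays of shCD36 tumours, with the 15 genes highest on palmitate above the grey line and the 15 lowest below it; each point is 1 array, open for the control diet and filled for palmitate. In every gene the points of the diets do not overlap, as in S100a8, with 4.72 to 6.17 against 7.51 to 8.06.

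Genes of the contractile coat of blood vessels were among those called lower. Rgs5, the regulator of G-protein signalling that marks pericytes, measured 7.57, 8.68 and 7.67 on the control diet and 6.20, 6.20 and 6.73 on palmitate, and fell by 1.59 ± 0.28 (3.02-fold lower, adjusted p = 0.0277). Myh11, the smooth muscle myosin heavy chain, measured 10.40, 10.20 and 10.33 against 8.74, 8.73 and 9.57 and fell by 1.30 ± 0.21 (2.45-fold lower, adjusted p = 0.0207). Myl9, the regulatory light chain of that myosin, measured 10.90, 10.46 and 10.43 against 9.21, 8.99 and 9.94 and fell by 1.22 ± 0.23 (adjusted p = 0.0383). In Myh11 and Myl9 the third palmitate array was the closest to the control arrays, and without it both were still called. Without any single other array neither passed, with an adjusted p of up to 0.0924 for Myh11 and 0.138 for Myl9. Rgs5 passed without control array 2 or palmitate array 3 and was lost without any of the other 4 (adjusted p up to 0.0836).

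Receptors, a channel subunit and regulators were also among the genes with the largest falls. Avpr1a, the vasopressin receptor of vascular smooth muscle, measured 8.76, 8.44 and 8.49 against 7.08, 6.67 and 7.43 (-1.50 ± 0.18, adjusted p = 0.0104). Gucy1a1, a subunit of the nitric oxide receptor, fell by 1.18 ± 0.19 and Tns1, an actin-binding protein of focal adhesions, by 1.22 ± 0.19. Heyl, a Notch target of mural cells, measured 8.19, 7.91 and 8.04 against 6.50, 6.57 and 7.34 (-1.24 ± 0.21, adjusted p = 0.0226). Rcan2, a calcineurin regulator, fell by 1.22 ± 0.14 and Kcne4, a potassium channel subunit, by 1.19 ± 0.09. Kcne4 passed in all 6 fits that left out 1 array, Avpr1a and Rcan2 in all but the fit without control array 1 (adjusted p = 0.0529 in both), Gucy1a1 and Tns1 in 2, and Heyl only without palmitate array 3. Other smooth muscle genes, named after their values were seen, included the myosin kinase Mylk (-0.97 ± 0.20), the smooth muscle co-activator Myocd (-0.71 ± 0.12), dystrophin Dmd (-0.73 ± 0.07) and Fhl1 (-0.65 ± 0.11).

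Across the pericyte and smooth muscle list, all 10 tested genes of 11 on the array had a negative difference, with a median of -0.33. Of these, 4 were called lower, against 1.62% of all genes, and 5 had lower palmitate arrays without overlap, against 12.3%. Beside Myh11 and Rgs5, the called members were the adhesion molecule Mcam, at 7.36, 7.24 and 7.15 against 6.62, 6.43 and 6.69 (-0.66 ± 0.10, adjusted p = 0.0151), and Mustn1 (-0.70 ± 0.11, adjusted p = 0.0221). The change did not extend to every marker. Acta2, smooth muscle actin, measured 11.58, 11.40 and 11.33 on the control diet, and palmitate array 3, at 11.48, lay among them (-0.27 ± 0.14, adjusted p = 0.428), and the pericyte receptor Pdgfrb differed by -0.14 ± 0.11 and Notch3 by -0.13 ± 0.09. In bulk RNA, fewer cells of a type and less RNA per cell cannot be told apart. The count of 4 fell to 0 without control array 1 or 3, was 1 without control array 2 or palmitate array 1 or 2, and was 4 without palmitate array 3, while the median stayed between -0.42 and -0.24.

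Many smooth muscle genes carry a CArG box, the palindromic site of serum response factor, near their start. It was found in the 250 bases before the start of 156 of the 10268 tested genes (1.52%), 6 of 158 called lower (3.8%) and 1 of 52 called higher (1.92%). The 6 include Myl9, Fhl1 and Dmd, shown because their products are contractile or muscle cytoskeleton proteins. The others are Ampd3, Ckap2l and Pdgfc, which were not picked for that reason. Here too the motif and the genes shown were chosen after the values were seen. Capitals mark the box within 50 bases of flank, which begins 161, 102 and 98 bases before the start (RefSeq, GRCm38.p6).
Myl9, chr2:156775253-156775362, plus strand: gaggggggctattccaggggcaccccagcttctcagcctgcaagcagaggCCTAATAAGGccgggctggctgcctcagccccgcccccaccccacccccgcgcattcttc
Fhl1, chrX:56779531-56779640, plus strand: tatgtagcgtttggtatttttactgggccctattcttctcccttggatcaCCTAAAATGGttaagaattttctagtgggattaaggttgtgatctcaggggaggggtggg
Dmd, chrX:82948722-82948831, plus strand: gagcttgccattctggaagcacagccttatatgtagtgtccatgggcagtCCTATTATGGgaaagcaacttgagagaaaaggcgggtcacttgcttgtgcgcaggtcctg
Rgs5 has no match in its window, and Myh11, Mylk, Heyl, Gucy1a1 and Tns1 are not among the 6 either. Nothing follows from this about the factor.

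Endothelial genes were lower as a list, by smaller amounts. All 19 tested genes of 20 on the array had a negative difference, with a median of -0.42, and 12 had arrays that did not overlap, against 12.3% of all genes. Kdr, the main VEGF receptor, measured 9.34, 9.38 and 9.37 against 8.43, 8.88 and 8.69 and fell by 0.69 ± 0.11 (adjusted p = 0.0221). Cdh5, the cadherin of endothelial junctions, measured 10.83, 10.54 and 10.73 against 10.02, 10.24 and 10.19 (-0.55 ± 0.10, adjusted p = 0.0328). The phosphatase Ptprb fell by 0.57 ± 0.09 and the VEGF receptor Flt1 by 0.50 ± 0.08. These 4 were the called members, against 1.62% of all genes called lower. Pecam1 (-0.42 ± 0.09, adjusted p = 0.0617) and the lymphatic factor Prox1 (-0.51 ± 0.13, adjusted p = 0.0992) did not pass. No endothelial gene was called without control array 1 or 3, 1 was called without control array 2 or palmitate array 1, and 2 without palmitate array 2 or 3. Of 12 Notch pathway genes only Heyl was called, and Hey1, a Notch target of endothelium, missed the threshold (-0.45 ± 0.10, adjusted p = 0.0707).

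Matrix genes fell in part. Col1a1, the main chain of fibrillar collagen, measured 12.65, 12.66 and 12.87 against 11.78, 11.94 and 11.67 and fell by 0.93 ± 0.10 (adjusted p = 0.00702), in all 6 fits that left out 1 array. The basement membrane chain Col4a2 measured 10.09, 10.22 and 10.15 against 9.34, 9.31 and 9.64 (-0.72 ± 0.10, adjusted p = 0.0136), and Col6a1 and Col6a2 fell by 0.65 ± 0.13 and 0.49 ± 0.10. These were the 4 called of 19 tested collagens, against 1.62% of all genes called lower, and the list's median was -0.26. Of the 19, 8 had lower palmitate arrays without overlap, against 12.3% of all genes. Without 1 array, between 1 and 3 collagens were called, 1 of them without any single control array, and the median was -0.53 without control array 1 and -0.48 without palmitate array 2. Col3a1, at 12.13, 12.92 and 12.98 against 12.67, 12.85 and 11.72, overlapped between diets (-0.26 ± 0.31).

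Periostin (Postn), a matricellular protein of activated fibroblasts, measured 10.13, 10.25 and 10.42 on the control diet and 9.54, 8.96 and 9.16 on palmitate, and fell by 1.05 ± 0.15 (adjusted p = 0.0135). It passed in 3 of the 6 fits that left out 1 array (adjusted p up to 0.0602). Tenascin C (Tnc) differed by -0.43 ± 0.11 (adjusted p = 0.0888) and versican (Vcan) by -0.18, neither of which passed. Over all genes, 1.62% were called lower, and 12.3% had lower and 8.12% higher palmitate arrays without overlap. Postn and Lamc1 (-0.46) were the 2 called of 17 matrix glycoproteins, a list with a median of -0.22. Of the 17, 6 had lower palmitate arrays without overlap. Of 20 matrix proteases and inhibitors, 2 were called lower and the median was -0.00, with 5 lower and 1 higher without overlap. The inhibitor Timp3 measured 10.21, 10.25 and 10.01 against 9.11, 9.08 and 9.45 (-0.94 ± 0.12, adjusted p = 0.0117). Adamts4, which cuts the proteoglycan aggrecan, measured 10.46, 10.39 and 10.57 against 9.21, 8.83 and 9.25 and fell by 1.38 ± 0.12 (2.6-fold lower, adjusted p = 0.00365). Of 15 fibroblast genes 2 were called lower, Col1a1 and Postn, and 3 had lower and 1 higher palmitate arrays without overlap. The list had a median of -0.12, and most markers of the cell type did not pass. That median was -0.28 without control array 1 and 0.08 without palmitate array 3.

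The gene that fell furthest was Lrrc15, a membrane protein of myofibroblasts in tumour stroma. It measured 10.34, 9.35 and 9.78 on the control diet and 7.74, 7.36 and 7.73 on palmitate, and fell by 2.21 ± 0.22 (4.63-fold lower, adjusted p = 0.00651). The call held in all 6 fits that left out 1 array. Tgfb3, a TGF-beta ligand, measured 8.06, 8.01 and 8.08 against 7.06, 7.19 and 7.36 (-0.85 ± 0.09, adjusted p = 0.00702). It was the only 1 of 18 TGF-beta response genes called, against 1.62% of all genes called lower. Zeb1, a mesenchymal repressor, fell by 0.76 ± 0.12 (adjusted p = 0.0221) and passed only in 1 of those fits. Sox9, a transcription factor of neural crest and epithelial progenitors, rose from 8.92, 8.99 and 9.09 to 9.68, 9.61 and 9.70 (0.67 ± 0.08, adjusted p = 0.0103). It was the 1 called higher among 16 neural crest and mesenchymal regulators, against 0.538% of all genes. The secreted Crispld2 fell by 1.36 ± 0.24 and passed only without palmitate array 3, whose value of 10.00 stood between 9.21 and 8.93 and the control arrays at 10.58 or above. Tktl1, a transketolase-like enzyme, measured 7.01, 7.13 and 6.92 against 5.73, 5.74 and 5.73 and fell by 1.28 ± 0.08 (adjusted p = 0.00052). Csf2rb2, the beta chain of the mouse interleukin-3 receptor, fell by 1.17 ± 0.19 (adjusted p = 0.0226) and was lost without control array 1 or 3 or palmitate array 3 (adjusted p up to 0.0939).

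Hair keratins and dividing-cell genes also contributed to the lower side. Krt31 measured 7.62, 6.35 and 6.89 on the control diet and 5.63, 5.24 and 5.47 on palmitate (-1.50 ± 0.27, adjusted p = 0.0314), but passed only without control array 2. Krt35 measured 6.92, 6.86 and 6.97 against 5.93, 5.72 and 6.13 (-0.99 ± 0.11, adjusted p = 0.00702) and passed in all 6 fits. They were the 2 called of 11 tested hair follicle genes, 6 of which had lower palmitate arrays without overlap. The list's median was -0.45, or -0.28 without control array 3. Of 26 cell cycle genes 2 were called lower, the cyclin Ccna2 (-0.53 ± 0.10, adjusted p = 0.0315) and the mitotic activator Cdc20 (-0.56 ± 0.10, adjusted p = 0.0282). The list had a median of -0.24 and 11 members with lower palmitate arrays without overlap, beside 12.3% of all genes without overlap and 1.62% called lower. Ccna2 was called in none of the fits that left out 1 array and Cdc20 in 1. Mki67 (-0.35 ± 0.10) and Cdk1 (-0.34 ± 0.10) did not pass, and Pcna and Mcm2 differed by 0.01 and 0.03.

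**Figure D3:**
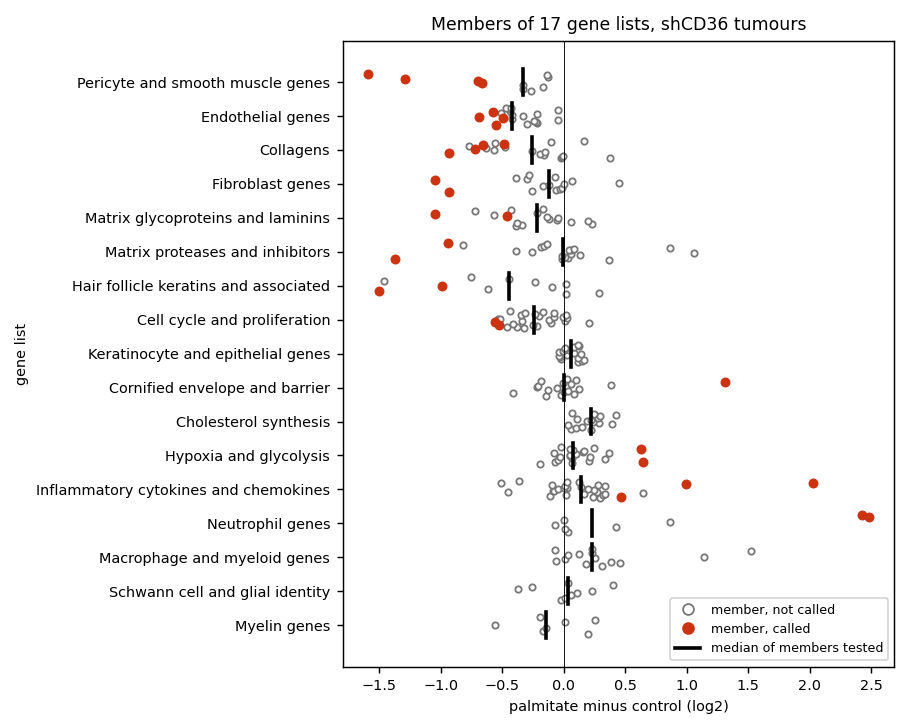
Log2 difference, palmitate minus control, of each tested gene in 17 of the lists, in shCD36 tumours of the second VDH15 experiment; each point is 1 gene, red where called, and the bar is the median of the members tested. The endothelial and the pericyte and smooth muscle genes lie entirely below 0, with medians of -0.42 and -0.33, and the keratinocyte genes lie between -0.04 and 0.17.

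No marker that would define a neural preparation was called. Sox10, the master regulator of Schwann cells, measured 6.79, 6.84 and 6.83 on the control diet and 6.90, 6.78 and 6.88 on palmitate (0.03 ± 0.08). Erbb3, its neuregulin receptor, measured 9.08, 8.95 and 9.05 against 9.09, 8.92 and 9.08 (0.01 ± 0.08). Of 13 Schwann cell genes on the array 9 were tested and none was called. S100b, Gfap, Foxd3 and Fabp7 were below the filter. None of 7 tested myelin genes and none of 9 tested neuronal genes was called, with medians of -0.15 (-0.03 without palmitate array 3, and 0.07 with the mean of all probe sets of a gene) and -0.01, and the myelin genes Mag and Gjb1 were below the filter. Some had arrays that did not overlap: the myelin genes Mal (-0.56 ± 0.23), Pmp22 (-0.19 ± 0.07), Drp2 (-0.17 ± 0.08) and Ncmap (0.26 ± 0.08), which are 4 of 7 against 20.4% of all genes, and the glial sodium channel gene Scn7a (0.40 ± 0.14). The 28 tested axon guidance genes included 3 called lower, the neuropilin Nrp1 (-0.66 ± 0.14, adjusted p = 0.0494), its ligand Sema3a (-0.40 ± 0.08, adjusted p = 0.0486) and the netrin receptor Unc5b (-0.40 ± 0.08, adjusted p = 0.0433). Over all genes 1.62% were called lower, and none of these 3 was called in any fit that left out 1 array. Of 14 genes of the Schwann cell repair state 2 were called, both higher, against 0.538% of all genes. They were Btc, an EGF receptor ligand (0.62 ± 0.10, adjusted p = 0.0239), and Ccl2. Nrg1, the growth factor that Erbb3 recognises and the 1 called of 13 neurotrophic genes, fell by 0.45 ± 0.08 (adjusted p = 0.0245), also in none of the fits that left out 1 array.

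Galanin and its receptors showed no change that could be detected. Gal measured 6.41, 6.47 and 6.16 against 6.27, 6.14 and 6.44 (-0.06 ± 0.11), Galr1 differed by -0.07 ± 0.08 and Galr3 by 0.09 ± 0.12, and Galr2 was below the filter. None of 10 tested neuropeptide genes was called. None of 13 perineuronal net and proteoglycan genes was called either, with a median of -0.08.

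No gene of the fatty acid lists was called. Mouse Cd36 measured 5.11, 5.25 and 5.61 on the control diet and 5.26, 5.17 and 5.28 on palmitate (-0.09 ± 0.12, adjusted p = 0.81). This probe reads the mouse gene in the stroma and does not check the shRNA, which acted in human cells. None of 24 PPAR target and fatty acid oxidation genes was called, with a median of -0.00: Cpt1a, the entry enzyme of mitochondrial oxidation, differed by 0.08 ± 0.08, and the lipid droplet gene Plin2 by 0.25 ± 0.10 (adjusted p = 0.276). None of 18 fatty acid synthesis genes was called, with a median of -0.04, and Scd1 differed by -0.21 ± 0.12. The fatty acid carrier Fabp4, also an endothelial and adipocyte gene, had lower palmitate arrays (10.89, 10.79 and 10.96 against 9.89, 10.30 and 10.46) and just missed the threshold (-0.66 ± 0.14, adjusted p = 0.0544).

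Cholesterol synthesis genes leaned upward without a call. All 16 tested genes had a positive difference, with a median of 0.22, and 6 had higher palmitate arrays without overlap, against 8.12% of all genes. The median was 0.12 without palmitate array 3 and 0.15 without control array 1. The largest was the squalene epoxidase Sqle, at 7.29, 7.27 and 7.51 against 7.69, 7.74 and 7.91 (0.42 ± 0.10, adjusted p = 0.0741). Of 22 hypoxia and glycolysis genes 2 were called, both higher, against 0.538% of all genes called higher. Bnip3, a mitophagy receptor, measured 8.32, 8.32 and 8.34 against 8.92, 8.88 and 9.10 (0.64 ± 0.08, adjusted p = 0.0117), and the lactate exporter Slc16a3 rose by 0.63 ± 0.12 (adjusted p = 0.0328). Bnip3 passed in 4 of the 6 fits that left out 1 array and Slc16a3 in none. The list had a median of 0.07, and 11 of its 22 members had higher palmitate arrays without overlap, against 8.12% of all genes. The hypoxia targets Vegfa, Adm and Car9 did not pass and differed by -0.02, -0.20 and -0.04.

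Few genes of the stress and interferon lists were called. Over all genes, 0.538% were called higher and 1.62% lower, and 12.3% had lower palmitate arrays without overlap. The interferon-induced Ifit2 measured 7.88, 7.92 and 7.59 against 6.71, 6.41 and 7.01 and fell by 1.09 ± 0.15 (adjusted p = 0.0136), and Oasl1 fell by 0.41. They were the 2 called of 19 interferon response genes, a list with a median of -0.02. Of 16 NRF2 and glutathione genes, haem oxygenase Hmox1 fell by 0.62 ± 0.11 and the thioredoxin reductase Txnrd1 by 0.49. Trib3, a pseudokinase of the integrated stress response, rose by 0.71 ± 0.09 (adjusted p = 0.0117) as the only 1 of 23 genes of its list. Among 23 immediate early genes Klf2, an endothelial flow-response factor, and Nr4a2 fell by 0.44 and 0.43, and neither was called in any fit that left out 1 array. Of the 23, 21 were negative, with a median of -0.10, and 9 had lower palmitate arrays without overlap. The glucocorticoid target Zbtb16 fell by 0.64 as the only called gene of 11, in a list with a median of -0.27. Of the 11, 10 were negative and 8 had lower palmitate arrays without overlap. The WNT antagonist Dkk3 fell by 0.47 as the only 1 of 16. Dkk3 and Oasl1 were called in none of the fits that left out 1 array, and Hmox1 and Txnrd1 in 1 each. None was called among 31 oxidative phosphorylation, 19 ribosomal protein, 13 heat shock, 12 p53 target, 15 clock and 10 insulin-like growth factor genes, nor among the tested genes of lymphocytes (7), mast cells (3), skeletal muscle (11), adipocytes (5), red blood cells (5) and salivary glands (2). The medians of the oxidative phosphorylation and ribosomal lists were both -0.03, close to the median of all genes.

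Whether these differences belonged to shCD36 tumours was tested as the difference of the palmitate effect between shCD36 and PLKO tumours, in 1 limma fit over the 12 arrays of the experiment. That difference was called in 1224 genes (9.55%), with 483 more positive in shCD36 tumours (3.77%) and 741 more negative (5.78%). Quantile normalization gave 646 and 655, a split of 49.7% positive in place of 39.5%. In PLKO tumours alone, palmitate called 261 genes (2.04%), 167 higher (1.3%) and 94 lower (0.733%). All 12 arrays shared a hybridization batch and a scan batch, so a batch constant cancels between them. The first PLKO palmitate array stood apart: over all genes it correlated with the other PLKO palmitate arrays at 0.981 and 0.984, while those correlated with each other at 0.993. Values without it are therefore given beside the tests that use it. Over the 12630 genes tested in both, the effects in shCD36 and PLKO tumours correlated at r = -0.186 (rho = -0.174), and at -0.223 without that array. These are descriptions across genes, which are not independent, and the arms share no arrays.

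Of the 30 named genes, 17 differed between the arms, against 9.55% of all genes, all more strongly in the direction seen in shCD36 tumours. Without the first PLKO palmitate array 24 did, and 16 did in both fits. The 30 were picked by the shCD36 arrays that this test also uses, which favoured a difference in that direction in advance. Neither the count nor the direction is therefore separate support. The alarmins rose in shCD36 tumours and not in PLKO tumours. In PLKO tumours S100a8 measured 7.27, 6.58 and 6.71 on the control diet and 5.55, 5.14 and 5.79 on palmitate and fell by 1.36 (adjusted p = 0.038), so the effects differed by 3.84 ± 0.46 (adjusted p = 0.00113). The difference was 3.78 ± 0.61 for Wfdc18 and 3.08 ± 0.54 for S100a9. Without the first PLKO palmitate array these values were 3.87, 4.44 and 2.98. Adam28, Pla2g4f and Tmprss11d followed with 2.48, 2.25 and 2.10, or 2.36, 1.48 and 1.68 without it. Pla2g4f, an epithelial phospholipase, was not called within shCD36 tumours (0.15 ± 0.11), and its difference came from a PLKO value of -2.10 that did not pass by itself (adjusted p = 0.0839).

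For Il33 the control arrays of the arms lay further apart than the palmitate arrays, which was not tested. PLKO tumours measured 8.61, 8.61 and 8.42 on the control diet and 8.48, 8.20 and 8.32 on palmitate, so the palmitate arrays of shCD36 tumours, at 8.58 to 8.92, lay near the PLKO level and their control arrays, at 5.97 to 7.12, lay below it. The difference of effects was 2.24 ± 0.34 (adjusted p = 0.00361). Sprr2d followed the same order, with PLKO arrays at 8.45, 8.20 and 8.18 on the control diet against 6.59, 7.89 and 8.03 on palmitate, and a difference of effects of 2.09 ± 0.41. Sprr2a1 differed by 2.22 ± 0.17. Without the first PLKO palmitate array, the lowest for Sprr2d, the values were 2.32 for Il33, 1.63 for Sprr2d and 2.10 for Sprr2a1.

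Il24 and Slfn2 rose in both arms. In PLKO tumours Il24 measured 7.26, 7.10 and 7.20 against 8.10, 8.56 and 8.57, a rise of 1.23 (adjusted p = 0.0233), and the effects did not differ by the test (-0.23 ± 0.17, adjusted p = 0.441). Slfn2 rose by 0.54 in PLKO tumours. They were the only 2 of the 67 genes called higher in shCD36 tumours and tested in PLKO that were also called higher there, and 4 were called lower, S100a8, Adam28, Aldh1l2 and Rbp2. Over all genes tested in PLKO, 1.3% were called higher and 0.733% lower. Of the 67, 30 had the same sign in PLKO and 37 the opposite, with a median of -0.11, and 45.2% of all genes tested in both arms shared the sign.

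On the lower side the arms moved apart most in matrix genes. Col6a3 and Col5a3 had the most negative differences of effect, -3.65 ± 0.53 and -3.48 ± 0.28, followed by Col1a1 (-2.93 ± 0.24), the collagen cross-linking enzyme Lox (-2.84 ± 0.52), the protease Mmp3 (-2.80 ± 0.50), Postn (-2.80 ± 0.29), Col5a1 (-2.61 ± 0.34) and the inhibitor Timp1 (-2.46 ± 0.40). All 8 were called with and without the first PLKO palmitate array, where they ran from -3.76 to -2.16. Col1a1 in PLKO tumours measured 11.11, 11.76 and 11.48 on the control diet and 13.74, 13.41 and 13.19 on palmitate, a rise of 2.00 (adjusted p = 0.0185) against the fall of 0.93 in shCD36 tumours. Postn rose there by 1.75, from 9.40, 9.48 and 9.20 to 11.64, 10.91 and 10.78. Col6a3, Col5a3, Lox, Mmp3, Col5a1 and Timp1 were not called within shCD36 tumours, so their differences rest mostly on the PLKO arm.

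Endothelial genes also differed between the arms. The median effect was 0.76 in PLKO tumours and -0.42 in shCD36 tumours, and the difference was called negative in 15 of 19 genes, or 13 without the first PLKO palmitate array. Over all genes tested, with all arrays, it was called negative in 5.78%. Kdr measured 9.61, 9.71 and 9.71 against 11.02, 10.46 and 10.52 in PLKO tumours, a rise of 0.99 (adjusted p = 0.0352), and its effects differed by -1.68 ± 0.20. Collagens gave 12 of 19 (11 without that array), matrix glycoproteins 11 of 17 (10) and proteases and inhibitors 10 of 20 (10). Cell cycle genes gave 9 of 26 (10), TGF-beta response genes 8 of 18 (8) and fibroblast genes 7 of 15 (5). The median effect of the pericyte and smooth muscle genes was 0.12 in PLKO tumours, and the difference was called in 3 of 10 genes, among them Rgs5 (-2.32 ± 0.42, adjusted p = 0.00678, and -2.36 without that array). Myh11 in PLKO tumours measured 9.99, 10.09 and 10.26 on the control diet and 8.58, 10.14 and 10.14 on palmitate, so the first palmitate array alone was low. Its effects did not differ by the test over all arrays (-0.80 ± 0.50, adjusted p = 0.355) but did without the first PLKO palmitate array (-1.32, adjusted p = 0.01). Of the other named genes, Lrrc15 (-2.15), Tns1 (-1.80), Adamts4 (-1.70), Csf2rb2 (-1.27), Tktl1 (-1.25) and Kcne4 (-1.22) had effects more negative in shCD36 tumours. Of 205 genes called lower and tested in PLKO, none was called lower there, against 0.733% of all genes, and 18 were called higher, against 1.3%. Of the 205, 60 shared the sign, against 45.2% of all genes tested in both arms, and the median was 0.22.

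**Figure D4:**
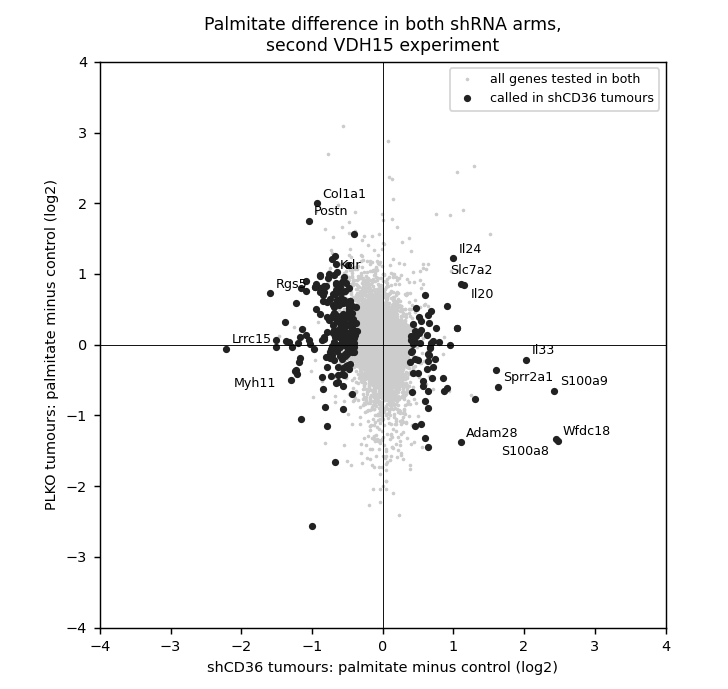
Palmitate minus control difference of each gene in shCD36 tumours (horizontal, log2) and in PLKO tumours (vertical, log2) of the second VDH15 experiment, 1 point a gene over 12630 genes, with genes called in shCD36 tumours as larger black points. The cloud has r = -0.186; Il24 lies above 0 on both axes, Col1a1 and Postn lie to the left and above 0, and S100a8 and Wfdc18 to the right and below 0.

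The same contrast in shCD36 tumours of SCC25 cells shares no array with the one described. There 684 genes were called (5.33%), 499 higher (3.89%) and 185 lower (1.44%). Over the 12709 genes tested in both, the differences correlated at r = 0.116 (rho = 0.0356), and 49.6% had the same sign. Of 67 genes called higher in VDH15 shCD36 tumours and tested in SCC25, 61 had a positive difference there, 29 were called higher and 1 lower, and the median was 0.36. Of 207 genes called lower, 109 were negative in SCC25 and 98 positive, 20 were called lower and 22 higher, and the median was -0.02.

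Il33 measured 7.0, 7.14 and 7.15 on the control diet and 8.66, 8.98 and 8.86 on palmitate in SCC25 tumours, a rise of 1.73 (adjusted p = 4.4e-06) beside 2.03 in VDH15. Il24 rose by 1.86 and Il20 by 2.08, beside 0.99 and 1.15. Sprr2d rose by 2.46 and Sprr2a1 by 1.66, beside 1.31 and 1.63, and Csta1, Defb1 and Sprr2h by 1.05, 0.59 and 0.47. Slfn2 rose by 1.27. The calprotectin genes and Wfdc18 did not: S100a8 differed by 0.48 (adjusted p = 0.099), S100a9 by 0.05 and Wfdc18 by 0.05.

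The pericyte and smooth muscle list had a median of 0.02 in SCC25 shCD36 tumours, with 1 of 10 genes called lower and none higher. That gene was Myh11, which fell by 1.17 (adjusted p = 0.00096). Among genes called lower in both lines, named after their values were seen, Mylk, Crispld2, Rgs4, Gucy1a1, Rcan2, Myl9 and Fhl1 fell by 0.94, 1.09, 0.83, 0.65, 0.55, 0.53 and 0.44. Rgs5 (0.49) and Lrrc15 (-0.22) were not called there. The endothelial list had a median of 0.49, 9 genes called higher and 1 lower, Kdr rising by 0.62 and Cdh5 by 0.90. Fibroblast genes had a median of -0.45 with 1 called higher and 6 lower. These comparisons put 2 lines and 2 experiments side by side, and the difference between the lines was not tested.

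**Figure D5:**
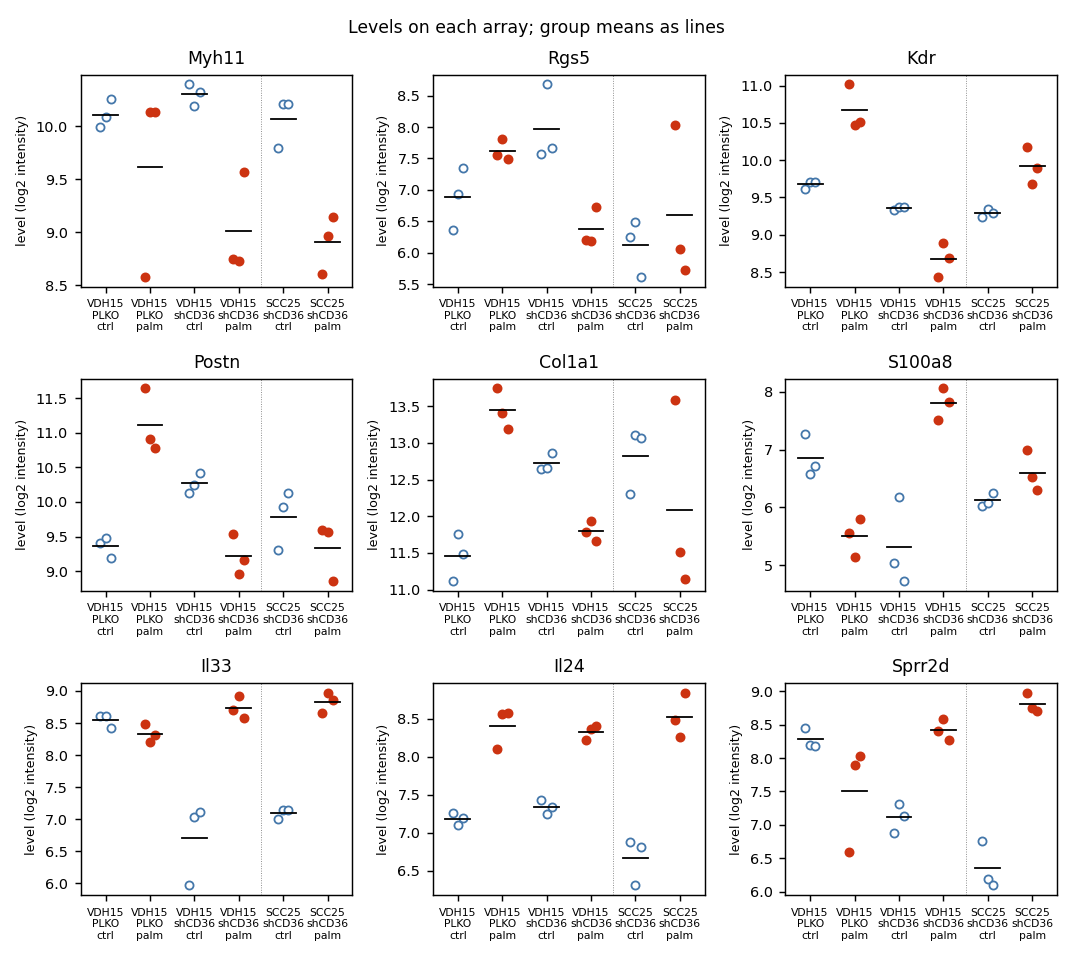
Log2 levels of Myh11, Rgs5, Kdr, Postn, Col1a1, S100a8, Il33, Il24 and Sprr2d on each array of VDH15 PLKO, VDH15 shCD36 and SCC25 shCD36 tumours, control diet (open) beside palmitate (filled); each point is 1 array and the line the mean of 3, and the vertical axis does not start at 0. Il33 is lowest on the control diet in both kinds of shCD36 tumour, and Col1a1 is higher on palmitate in VDH15 PLKO tumours (11.11 to 11.76 against 13.19 to 13.74) and lower in VDH15 shCD36 tumours.

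The number of calls rested on each array. Leaving out control array 1, 2 or 3 left 36, 88 or 46 called genes, and leaving out palmitate array 1, 2 or 3 left 124, 158 or 195, of which 34, 84, 46, 109, 138 and 154 were among the 277. Of the 30 named genes, 14 were called in all 6 of these fits and 16 in some. All 30 kept their sign in each, as genes picked for arrays without overlap must when 1 array is left out. Of the 47 called genes that belong to a list, 9 were called in all 6 and 13 in none. Where the arrays of each of the 11 groups were averaged to 1 value and fitted with condition and experiment, which takes each group as 1 replicate, no gene was called (0%) by limma, the smallest adjusted p was 0.99978, and 282 genes had an unadjusted p under 0.05 (2.2%). That fit gives 1 shCD36 difference for VDH15 and SCC25 together, so it is not the VDH15 contrast alone: Il33 had 1.88 ± 0.24 in it, between 2.03 and 1.73 in the lines, with an unadjusted p of 0.000138 from limma over 11 averages. All 30 named genes had the same sign in it, but it includes the VDH15 arrays by which they were picked. The median of the endothelial list in that fit was 0.06.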

How the data were processed

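Affymetrix mouse arrays were analysed as the authors deposited them: log2 intensities, with RMA and affy listed per the submitters' processing notes and no version given. With diet and shRNA in the model, hybridization batch coefficients were below 1e-06 in 100% of 17097 genes, so the deposited values had been adjusted for that batch. Of 45141 probe sets, 28898 named 1 gene and were used, 551 named several and 15692 none; 28689 were matched to RefSeq by gene ID. A gene with several probe sets was represented by the one whose mean across the 36 arrays was greatest. Genes in the lowest 25% by mean over the 6 arrays were left out, and the fit used limma 3.58.1 (R 4.3.3) on the 6 arrays, or on 12 for the difference between shRNA arms, with Benjamini-Hochberg adjustment and a call under 0.05. It was tested on simulated data.

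The comparison, the 47 gene lists and the rules were chosen with earlier results of these data known. Named genes were the 15 highest and 15 lowest called genes without overlap, the 8 and 8 with the most positive and negative difference between the arms, up to 6 members of each list by smallest p, and Cd36, Gal, its receptors, Postn, Tnc and Vcan; predicted names were passed over. Alternatives were other filters, probe set rules, normalizations, error models, groups and each array left out. The number of arrays and the single biological replicate a side limit the precision.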

Additional observations from a re-analysis of the deposited data

Results flagged for a closer look

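The palmitate effect differed between shCD36 and PLKO tumours of the second VDH15 experiment, by the interaction test in limma over 12 arrays, in 483 genes more positive and 741 more negative in shCD36 tumours. For the named genes below the value is the shCD36 effect minus the PLKO effect on the log2 scale, and each adjusted p was under 0.05.

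Among the alarmins, antimicrobial and barrier genes the difference was 3.84 for S100a8, 3.78 for Wfdc18, 3.08 for S100a9, 2.24 for Il33, 2.22 for Sprr2a1, 2.09 for Sprr2d and 2.10 for Tmprss11d. It was 2.48 for the metalloprotease Adam28, 2.25 for the phospholipase Pla2g4f, 1.97 for the retinoid enzyme Aldh1a3, 0.96 for the transporter Slc6a14 and 0.81 for Lgi2. Aldh1a3 was no longer called without the first PLKO palmitate array (1.81, adjusted p = 0.0540 in limma).

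Among matrix genes it was -3.65 for Col6a3, -3.48 for Col5a3, -2.93 for Col1a1, -2.61 for Col5a1, -2.84 for Lox, -2.80 for Mmp3, -2.80 for Postn, -2.46 for Timp1, -1.70 for Adamts4 and -0.71 for Tnc. Among vascular and other stromal genes it was -2.32 for Rgs5, -2.15 for Lrrc15, -1.80 for Tns1, -1.27 for Csf2rb2, -1.25 for Tktl1 and -1.22 for Kcne4.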

How the results depend on the processing

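Main counts were 69 genes higher and 208 lower, and 483 and 741 for the difference between the arms. Leaving out 1 array gave 16 to 44 higher and 20 to 152 lower, and 238 to 627 and 498 to 904 for the difference between the arms. An intensity-dependent robust prior gave 149 and 433. A replicate block gave 50 and 143 (165 genes shared with the 277), and 371 and 634 between the arms. Same-numbered arrays deviated together with correlations of 0.170, 0.310 and 0.0129, and 2 of 3 correlated best with their own number. The labels give no link beyond that number, and whether same-numbered arrays were handled together was not tested. A fit of 4 groups gave 41 and 121, the 11 averages 0 and 0, and a difference of at least 1 without overlap 16 and 31. Other counts lay within 1.5 times the main ones, from 63 to 84 and 167 to 251. None of the 30 genes with the largest differences changed sign in these fits, nor did the 16 picked by the difference between the arms, in that difference. Other differences in shCD36 tumours did where 1 array was left out. Among them, Cd36 ran from -0.19 to 0.05, Vcan from -0.45 to 0.14, Galr3 from -0.01 to 0.20 and Mmp3 from -0.16 to 0.23. For the 30 genes picked for arrays without overlap, this was fixed in advance where 1 array was left out. List medians did change sign. The fibroblast median was 0.08 without palmitate array 3, and the endothelial median 0.06 in the averages, which pool VDH15 and SCC25. The myelin median was 0.07 with the mean of all probe sets of a gene. Several smaller medians also changed sign without 1 array or under another filter or scaling. For single named genes, 624 values under alternatives kept their side of the threshold and 121 no longer passed it. For list medians, 551 stayed and 107 moved. Calls held in 22 of 30 named genes with the robust prior, 27 with the block and 19 with 4 groups. With 3 technical replicates a side and 1 biological replicate, neither spread between animals nor small differences could be resolved.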

Other observations

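The late cornified envelope genes varied most within a diet. Lce1a2 measured 3.32, 8.66 and 8.39 on the control arrays and 3.57, 8.34 and 4.81 on palmitate, and its difference between diets did not pass in limma (adjusted p = 0.784). In 12 genes the range within a diet exceeded 3 on the log2 scale: Lce1a2, Lce1a1, Lce1f, Lce1i, Lce1d, Lce1l, Lce1h, Lce1b, Lce3a, Kprp, Ptx3 and Ppbp. None of them was called.

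Secreted inflammatory proteins also differed between arrays of 1 diet. Ptx3, a pentraxin, measured 7.65, 10.94 and 11.46 on the control arrays and 10.68, 12.04 and 10.19 on palmitate. Saa3, an acute-phase protein, measured 10.02, 11.54 and 11.91 against 12.75, 12.31 and 12.31, a difference of 1.30 that did not pass in limma (adjusted p = 0.184). Penk, the enkephalin precursor, stood at 9.34 on the second control array and between 6.56 and 6.76 on the other 5.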
